A study of Mus musculus with 4 samples.

Results

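The 10 genes described here encode killer lectin-like receptors of the NKG2 and NKR-P1 families and were taken by symbol, as Klrc1, Klrc2, Klrd1, Klrk1, Klrb1a, Klrb1b, Klrb1c, Klrb1f, Klre1 and Klri2, out of 31253 gene rows. All 10 were found as 1 row each in both libraries. Their transcripts were counted as unique molecular identifiers (UMIs) by droplet single-cell RNA sequencing of live CD45+ cells, the leukocytes, from tumor-bearing brain hemispheres. The tumors had grown for 14 days from CT2a, a mouse glioma line, in 4 WT C57BL/6J mice and in 4 CaMKK2 KO mice, which lack the calcium/calmodulin-dependent kinase kinase CaMKK2 in the whole body. Neither group received a drug, WT mice were purchased and CaMKK2 KO mice came from another laboratory's colony, and cells of the 4 mice of a genotype were tagged with hashtag antibodies and run together in 1 channel. Genotype, colony and channel therefore cannot be told apart, and mice are the replicates within each channel.

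After doublets, untagged barcodes and outlying cells were removed, 5225 WT and 5770 CaMKK2 KO cells remained, with 1046 to 1702 cells and 12647637 to 20933990 UMIs per mouse. The median cell held 12708 UMIs among WT cells and 11535.5 among CaMKK2 KO cells. Barcode sequences found in both libraries numbered 42 among all barcodes and 8 among the cells kept. Camkk2 itself lay between 27.8 and 38.4 UMIs per 1000000 (CPM) in the 4 WT mice and between 13.4 and 22.4 CPM in the 4 CaMKK2 KO mice, so the genotypes did not overlap, although the transcript was still counted. Whether the 3'-end reads cover a deleted part of the gene was not tested.

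NKG2 receptors are lectin-like proteins by which natural killer (NK) cells and activated CD8 T cells read molecules on other cells. CD94, the product of Klrd1, pairs with NKG2A (Klrc1) to form an inhibitory receptor, or with NKG2C (Klrc2) to form an activating one, and both pairs bind the non-classical class I molecule Qa-1 (H2-T23). NKG2D (Klrk1) is a homodimer that recognises stress-induced ligands such as the RAE-1 and H60 families and signals through the adapters Hcst (DAP10) and Tyrobp (DAP12). Klre1 and Klri2 encode lectin-like receptor chains that can pair with each other. Some NKR-P1 receptors bind lectin-like proteins of the Clec2 family. Klrb1c encodes NK1.1, the antigen by which NK cells of C57BL/6 mice are usually sorted, Klrb1a a close activating relative, Klrb1b the inhibitory receptor for Clec2d, and Klrb1f a further family member.

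All 10 genes lie in the natural killer gene complex of chromosome 6, and their order there (build GRCm38) is Klrb1a (128609227 to 128623533, minus strand), Klrb1c (128778485 to 128789215, minus), Klrb1b (128813706 to 128826331, minus), Klrb1f (129045901 to 129057464, plus), Klre1 (129577905 to 129585827, plus), Klrd1 (129591782 to 129598775, plus), Klrk1 (129610323 to 129623864, minus), Klrc2 (129647496 to 129660689, minus), Klrc1 (129666015 to 129678973, minus) and Klri2 (129729041 to 129740484, minus). Near-identical sequence could cost reads in some of them. Of the 91-base windows in the last 500 bases of the annotated transcripts, 21.5% of those of Klrc1 also occurred in Klrc2, and 8.18% of those of Klrc2 occurred in Klrc1 or Klrc3. For Klrb1b and Klrb1c the shares were 13.8% and 11.3%, with the gene model Gm44511, which overlaps both on the same strand, and for Klrb1a it was 1.28%, with Klrb1c. The other 5 members shared no window.

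Promoter sequences, from 250 bases before to 50 after the annotated start, were found in RefSeq (GRCm38.p6) for 8 of the 10 genes, all but Klrd1 and Klri2. The promoters of Klrb1a, Klrb1c and Klrb1b are shown because the first pair had nearly the same pattern over cell types and the last had another pattern, as described below. Capitals mark the letters TGTGGT, the core motif of RUNX factors, or their reverse complement ACCACA.
Klrb1a (chr6:128622885-128623184, minus strand): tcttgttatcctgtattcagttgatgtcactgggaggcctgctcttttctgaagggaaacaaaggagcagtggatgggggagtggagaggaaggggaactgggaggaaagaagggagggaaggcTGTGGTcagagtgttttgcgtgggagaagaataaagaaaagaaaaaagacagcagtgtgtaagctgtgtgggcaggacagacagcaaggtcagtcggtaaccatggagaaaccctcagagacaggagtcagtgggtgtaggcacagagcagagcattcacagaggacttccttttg
Klrb1c (chr6:128788592-128788891, minus strand): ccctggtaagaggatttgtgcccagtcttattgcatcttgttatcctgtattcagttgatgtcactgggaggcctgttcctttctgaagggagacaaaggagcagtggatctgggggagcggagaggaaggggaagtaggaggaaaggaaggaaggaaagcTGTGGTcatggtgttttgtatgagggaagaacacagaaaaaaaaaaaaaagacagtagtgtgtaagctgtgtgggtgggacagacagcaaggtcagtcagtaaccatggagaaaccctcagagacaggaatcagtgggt
Klrb1b (chr6:128826266-128826565, minus strand): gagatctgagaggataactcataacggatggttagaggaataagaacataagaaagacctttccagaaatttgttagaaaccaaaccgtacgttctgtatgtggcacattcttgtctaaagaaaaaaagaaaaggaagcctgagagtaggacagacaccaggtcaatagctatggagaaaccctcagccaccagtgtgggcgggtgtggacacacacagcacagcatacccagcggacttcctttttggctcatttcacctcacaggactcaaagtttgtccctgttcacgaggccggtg
Aligned with gaps, the Klrb1a and Klrb1c promoters were identical at 89.1% of 265 columns, against 61.1% for Klrb1a with Klrb1b and 59.0% for Klrb1c with Klrb1b. The RUNX letters, searched on both strands, occurred in a promoter of 6 of the 8 genes (Klrb1a, Klrb1c, Klrc1, Klrc2, Klre1 and Klrk1) and in 16.8% of all 32851 promoter windows. The T-box letters GGTGTG occurred in Klrb1b and Klrb1f and in 19.1% of all windows, and the ETS letters GAGGAA occurred in Klrb1a, Klrb1b, Klrb1c and Klre1 and in 28.3% of all windows. Some genes have more than 1 annotated start, and a gene counts when any of its windows holds the letters.

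Cells were assigned to classes by fixed UMI thresholds on marker genes that include none of the 10 receptor genes. NK cells were cells below a UMI threshold on the CD3 genes, so single CD3 UMIs were allowed. They carried Ncr1, the gene of the receptor NKp46, and their summed UMIs of Ncr1, Eomes, Prf1 and Txk reached a fixed threshold. None of Eomes, Prf1 and Txk was required by itself. The gate held 1233 cells, 516 WT and 717 CaMKK2 KO, or 79 to 245 per mouse. In a clustering made without the receptor genes, 1230 of them fell into the NK clusters, which held 1467 cells in all. Of 7 NK marker genes outside the gate, Gzma (6663 CPM), Klra4 (291), Klra8 (257) and Klra9 (209) were highest in NK cells among the classes. The others were higher elsewhere. Klra7 was at 356 CPM in NK cells and 399 in T cells with Ncr1. S1pr5 was at 18.7 CPM in NK cells and 77.9 in non-classical monocytes. Cma1 was at 31.4 CPM in NK cells and 6126 in basophils or mast cells. The 6 T cell check genes summed to 652 to 877 CPM in NK cells and to 2681 to 3989 CPM in CD8 T cells. In NK cells Cd6, Cd5 and Trac stood at 0.97, 1.35 and 16.0 CPM, whereas Trbc1, at 498 CPM against 640 CPM in CD8 T cells, Trbc2, at 179 CPM, and Cd28, at 67.5 CPM, were well above 0 there.

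**Figure D1:**
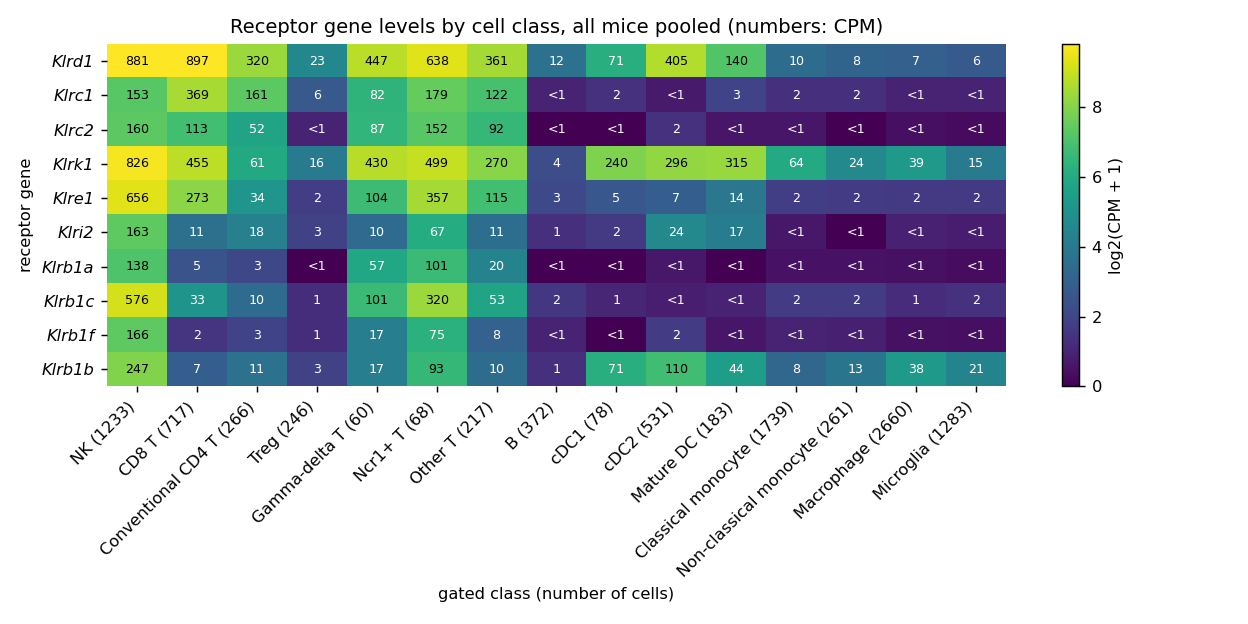
Level of each receptor gene (rows) in each gated class of at least 60 cells (columns, with the number of cells), all mice pooled; colours show log2(CPM + 1) and the printed numbers are CPM. NK cells and cells with Ncr1 that passed the T gate have all 10 genes, CD8 T cells mainly Klrd1, Klrc1, Klrc2, Klrk1 and Klre1, dendritic cells mainly Klrd1, Klrk1 and Klrb1b, and regulatory T and B cells have little of any.

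NK cells carried every member, as did the few cells with Ncr1 that passed the T gate, and Klrd1 and Klrk1 also reached far into other lineages. In NK cells, as the mean of 8 mice, Klrd1 stood at 881 ± 111 CPM (SD, n = 8), Klrk1 at 846 ± 106, Klre1 at 689 ± 212, Klrb1c at 573 ± 131, Klrb1b at 249 ± 40.3, Klri2 at 175 ± 43.7, Klrc2 at 164 ± 43.2, Klrb1f at 163 ± 19.2, Klrc1 at 158 ± 20.3 and Klrb1a at 141 ± 42.8. B cells, which are not known to use these receptors, served as a measure of free RNA. Their means were 12.2 CPM for Klrd1, 4.59 for Klre1 and 3.38 for Klrk1, and at most 1.82 for the other 7 genes.

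The same pattern was seen in shares of cells. With every cell thinned to 3000 UMIs, 88.9% of 1208 NK cells had a Klrd1 UMI, 89.9% a Klrk1 UMI, 84.4% a Klre1 UMI and 80.4% a Klrb1c UMI, and the other 6 genes were seen in 32.4% (Klrc1) to 45.4% (Klrb1b). In B cells thinned alike, 4.44% had Klrd1 and 1.18% had Klrk1. Before thinning, 98.1% of NK cells had Klrd1. The median NK cell carried 6 of the 10 genes at that depth. The inhibitory and activating CD94 partners were not exclusive of one another, as Klrc2 was seen in 50.9% of NK cells with Klrc1 and in 36.5% of those without.

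NK and CD8 T cells of the same mice were compared next. CD8 T cells, gated on the CD3 genes with Cd8a or Cd8b1 and without Ncr1, Cd4 or Foxp3, numbered 717, with 16 cells in WT mouse 1 and up to 140 in other mice. Among the CD94 chains, Klrd1 stood at 840 ± 228 CPM in CD8 T cells (SD, n = 8), close to its NK level, Klrc1 at 351 ± 84.5 CPM, and Klrc2 at 118 ± 43.8 CPM. By mouse, Klrc1 in CD8 T cells was 184, 306, 358 and 376 CPM in the 4 WT mice and 468, 335, 356 and 424 CPM in the 4 CaMKK2 KO mice, against 126 to 192 CPM in NK cells. It was higher in CD8 T than in NK cells in all 8 mice. Klrk1 (NKG2D) and Klre1 ran the other way, with Klrk1 at 446 ± 63.5 CPM and Klre1 at 261 ± 93.0 CPM in CD8 T cells.

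Of the NKR-P1 genes little was found in CD8 T cells. Klrb1c varied from 2.58 to 122 CPM among the 8 mice, with the highest value in WT mouse 1, whose value rests on 16 cells. The other NKR-P1 genes had means of 4.28 (Klrb1a), 6.35 (Klrb1b) and 2.05 CPM (Klrb1f), and Klri2 had 9.21 CPM.

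**Figure D2:**
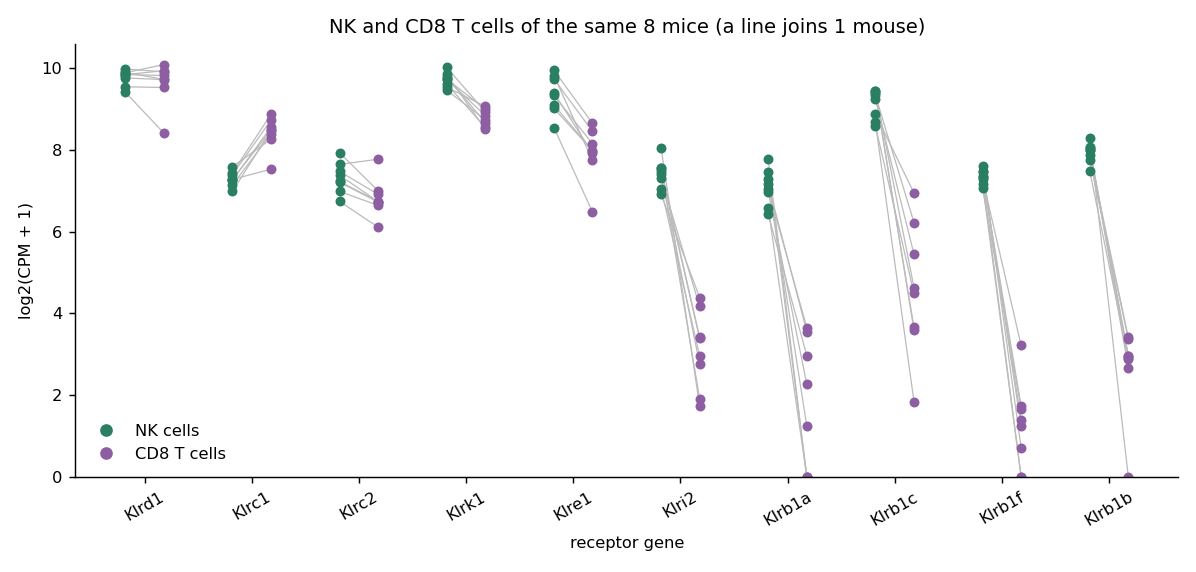
Level of each receptor gene, as log2(CPM + 1), in NK cells (green) and CD8 T cells (purple) of the same 8 mice, with a line joining the values of 1 mouse. Klrc1 rises from NK to CD8 T cells in every mouse, Klrd1 stays at about the same level, and Klri2 and the 4 NKR-P1 genes fall steeply.

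In edgeR's quasi-likelihood test on UMIs summed per mouse, with mouse as a block and Benjamini-Hochberg adjustment over all genes, 8 of the 10 members were higher and 1 was lower in NK than in CD8 T cells, where 16% of 10149 genes were higher and 14.3% were lower. The log2 differences were 6.49 for Klrb1f (SE 0.24), 5.16 for Klrb1b (SE 0.16), 4.81 for Klrb1a (SE 0.28), 4.28 for Klrb1c (SE 0.28) and 3.92 for Klri2 (SE 0.22). They were smaller for Klre1, at 1.38, for Klrk1, at 0.93, and for Klrc2, at 0.50 with an adjusted p of 4.18e-04 in edgeR. Klrc1 was lower by a log2 value of -1.17 (SE 0.10). Klrd1 did not pass, with a log2 difference of 0.09 and an adjusted p of 0.494 in edgeR. These 9 calls held with each mouse left out in turn and under each other setting tried. Among them, Klrb1f and Klrb1a had only 16 and 45 UMIs in CD8 T cells. Both counts were under the minimum of 50 UMIs, so these genes met it through NK cells alone. Their calls therefore add no support to the count set against all genes, and their levels given above are a description. The ratio of Klrc1 to Klrc2 UMIs ran from 0.576 to 1.46 by mouse in NK cells and from 1.95 to 3.91 in CD8 T cells. It was higher in CD8 T cells in 8 of 8 mice, by 1.62 on the log2 scale on average (exact sign-flip permutation test over mice, two-sided p = 0.0078, the smallest that 8 mice allow).

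The partner molecules of these receptors differed between both cell types as well. Of 17 adapter and signalling genes tested, 9 were higher in NK cells and 5 in CD8 T cells. Tyrobp, an adapter of NKG2D, stood at 1965 ± 214 CPM in NK and 38.1 ± 7.33 CPM in CD8 T cells, and Hcst, the other adapter of NKG2D, at 414 ± 55.0 CPM in NK and 719 ± 119 CPM in CD8 T cells. Both differences passed the test. Among the transcription factors, 6 of 8 tested were higher in NK cells, with Eomes by 3.80 on the log2 scale, and Ets1 was lower. Eomes is among the genes that the NK gate sums, so its difference is partly set by the gate. Of 6 further killer lectin-like receptors 3 were tested, Klrb1 and Klrg1 were higher in NK cells, and Klrh1 was lower. Klrh1 was at 154 ± 71.6 CPM in CD8 T cells and at 0.343 CPM in NK cells. In a window reaching 1 Mb beyond the outermost members on either side, 32 of 72 genes could be tested, and 19 were higher and 7 lower in NK cells, the members included.

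Other T cells carried the genes to different degrees, in values pooled over mice where cells were few. Gamma-delta T cells (60 cells) had Klrd1 at 447 CPM and Klrk1 at 430 CPM. T cells with Ncr1 (68 cells) had all 10 genes, from Klri2 at 67.0 CPM to Klrd1 at 638 CPM, with Klrb1c at 320 CPM, between its NK and CD8 T values. Gzma, at 1235 CPM, and Trac, at 380 CPM, also lay between NK cells (6663 and 16.0) and CD8 T cells (408 and 905). In the clustering, 30 cells of the NK clusters passed a T gate. NK cells with CD3 UMIs or mixed droplets among these 68 cells could not be told apart from T cells. Regulatory T cells (246 cells) had the lowest T cell values, with Klrd1 at 27.0 ± 30.7 CPM (SD over mice), and none of the 10 genes reached 50 UMIs in the class. In conventional CD4 T cells Klrd1 was more frequent where Klrc1 was seen: with cells thinned to 3000 UMIs, it was seen in 61.4% of 57 cells with Klrc1 and in 13.6% of 198 cells without.

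Dendritic cells carried 3 of the genes at levels well above those of B cells. In cDC2, gated on Cd209a, Clec10a, Flt3 and Kmo, Klrd1 stood at 389 ± 109 CPM, Klrk1 at 304 ± 50.5 CPM and Klrb1b at 108 ± 36.6 CPM (SD, n = 8), and Klri2 at 22.7 ± 8.94 CPM. By mouse, Klrd1 in cDC2 was 487, 526, 275 and 472 CPM in WT and 288, 238, 413 and 417 CPM in CaMKK2 KO mice. Each of these 4 genes was above the B cell level in 8 of 8 mice (exact sign-flip permutation test, two-sided p = 0.0078 for each, the smallest possible, unadjusted, among 100 such tests of 10 genes in 10 classes). Klrc1, Klrc2, Klrb1a and Klrb1c were at 0.477 to 1.60 CPM in cDC2.

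The proportions of the genes in cDC2 differed from those in NK cells. Klre1 had 0.745 UMIs for each Klrd1 UMI in NK cells and 0.0165 in cDC2, and Klrc1 had 0.173 in NK cells and 0.00160 in cDC2. The 7 NK genes outside the gates summed to 4.2 to 7.39 CPM in cDC2 of the WT mice and to 18.6 to 26.8 CPM in the CaMKK2 KO mice, with 1 of the 7 at 0. Klrk1 was more frequent in cDC2 with Klrd1 than in those without, being seen in 57.4% of 256 thinned cells with Klrd1 and in 36.0% of 275 without. Mature DC, gated on Ccr7, Fscn1, Ccl22 and Il4i1, had Klrk1 at 338 ± 113 CPM, Klrd1 at 149 ± 87.1 CPM and Klrb1b at 51.2 ± 35.7 CPM (SD, n = 7). The 78 cDC1, pooled, had Klrk1 at 240 CPM.

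**Figure D3:**
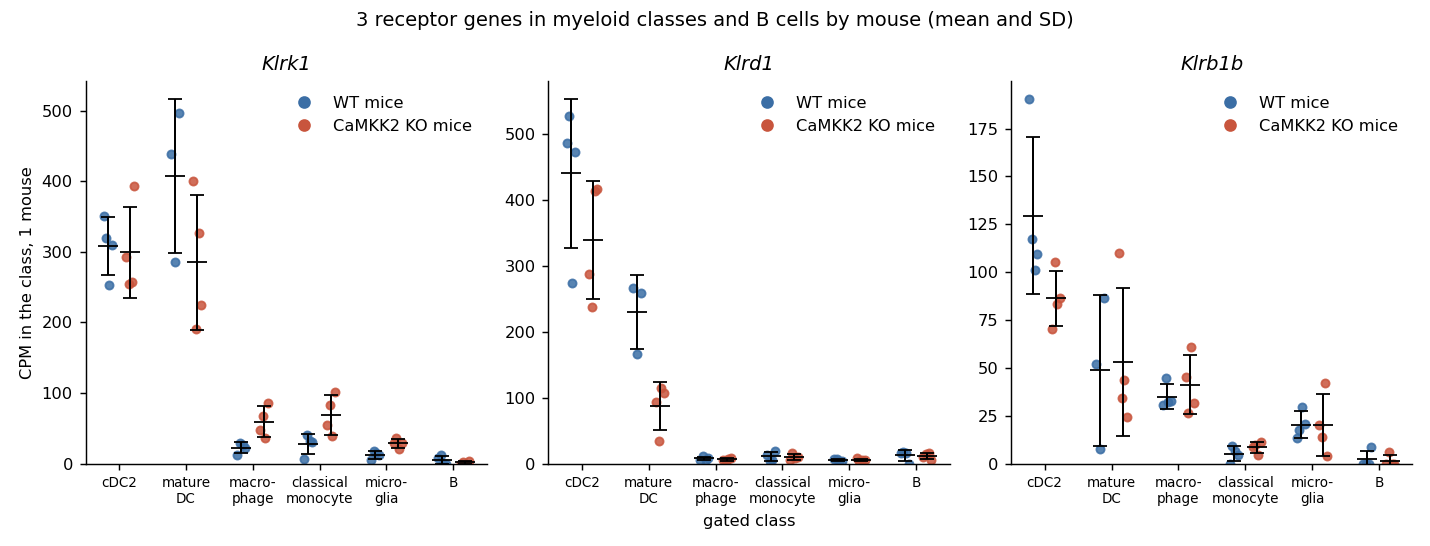
Klrk1, Klrd1 and Klrb1b (panels, each with its own axis from 0) in CPM for 5 myeloid classes and B cells, 1 point per mouse with mean and SD of the WT (blue) and CaMKK2 KO (red) mice; mice with fewer than 10 cells of a class are left out. Dendritic cells hold all 3 genes, and Klrk1 in macrophages and microglia is higher in each CaMKK2 KO mouse than in any WT mouse.

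Macrophages, monocytes and microglia had lower levels of Klrk1 and Klrb1b, and their mean Klrd1 CPM was below that of B cells. B cells were shallower, with a median of 4232.5 UMIs against 14306.5 in macrophages, and the part of this difference in the result was not tested. Before thinning, 8.01% of macrophages and 6.45% of B cells had Klrd1, and after thinning 2.05% and 4.44%. In macrophages Klrb1b was at 38.0 ± 11.4 CPM and Klrk1 at 40.7 ± 24.9 CPM, both above B cells in 8 of 8 mice, whereas Klrd1 was at 7.05 ± 2.17 CPM and was above B cells in 2 of 8 mice. In microglia Klrb1b was at 20.2 ± 11.5 CPM and above B cells in 8 of 8 mice. A comparison of cDC2 with macrophages of the same mice, added after these levels were seen, called 5 of the 6 members tested higher in cDC2 by edgeR, where 20.1% of 11245 genes were higher. Because the levels were known beforehand, this count is a description and no independent test against all genes. The log2 differences were 5.77 for Klrd1 (SE 0.11), 4.61 for Klri2, 3.08 for Klrk1, 1.68 for Klre1 and 1.51 for Klrb1b. Klri2 had 220 UMIs in cDC2 and 35 in macrophages. The latter was under the minimum of 50 UMIs, so Klri2 met it through cDC2 alone and its call adds no support. Tbx21, the T-box factor of cytotoxic lymphocytes, and Klri1, a relative of Klri2, were also higher in cDC2, at 7.36 ± 7.23 against 0.391 CPM and at 6.18 ± 3.19 against 0.172 CPM. Of the 7 transcription factors tested Id2 was higher too, whereas Nfil3, Prdm1 and Zeb2 were lower. Klrg2, the other of 2 further receptors tested, was lower. Of 16 adapter and signalling genes 3 were higher and 6 were lower, among the latter Hcst and Tyrobp. Of 6 ligand genes 3 were higher and 1, Raet1d, was lower.

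NK cells were next divided by Gzmc, a granzyme gene, into 465 cells with 2 or more Gzmc UMIs and 612 cells with none. Every one of the 10 receptor genes was lower in the cells with Gzmc, and Klrc2 was lower by the most. Klrc2 in cells without Gzmc was 153, 287, 285 and 308 CPM in the 4 WT mice and 326, 355, 249 and 228 CPM in the 4 CaMKK2 KO mice. In cells with Gzmc it was 75.5, 107, 78.5 and 96.2 CPM in WT and 78.3, 83.5, 90.6 and 175 CPM in CaMKK2 KO mice, so it was lower in all 8 mice.

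**Figure D4:**
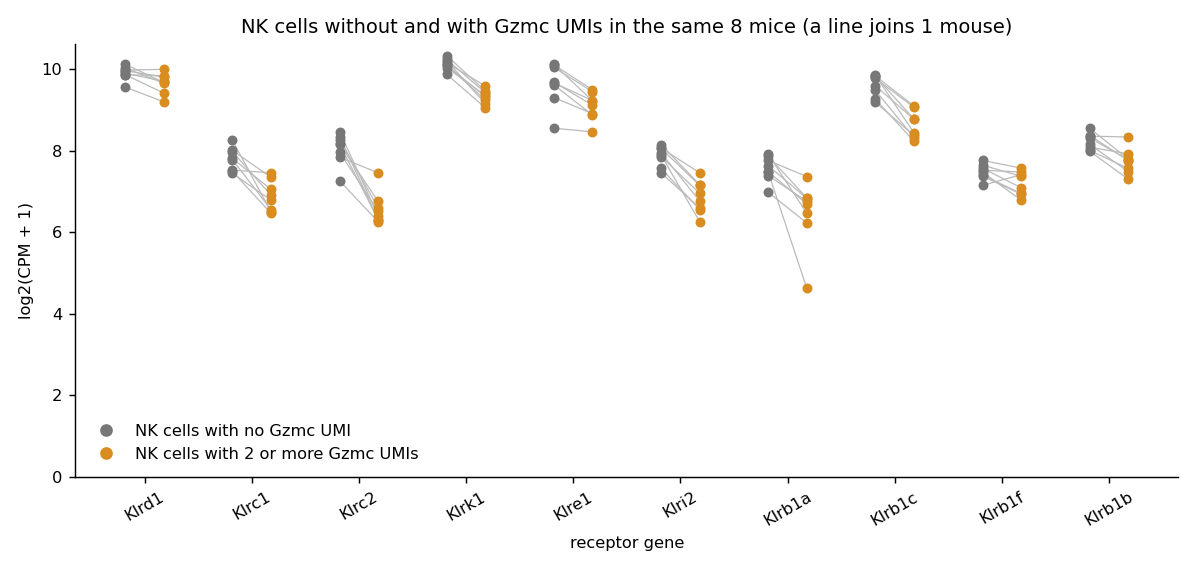
Level of each receptor gene, as log2(CPM + 1), in NK cells with no Gzmc UMI (grey) and with 2 or more (orange) of the same 8 mice, with a line joining the values of 1 mouse. Klrc2, Klrk1 and Klrb1c fall in each mouse, and the values of Klrd1, Klrb1f and Klrb1b lie closer together.

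By edgeR with mouse as a block, all 10 members passed as lower, where 23.9% of 9205 genes were lower. The log2 differences were -1.57 for Klrc2 (SE 0.12), -1.03 for Klri2, -1.02 for Klrb1a, -0.97 for Klrb1c, -0.93 for Klrc1, -0.81 for Klrk1, -0.55 for Klre1 and -0.51 for Klrb1b. The smallest were -0.31 for Klrb1f (edgeR adjusted p = 0.0147) and -0.25 for Klrd1 (edgeR adjusted p = 0.0120), and these last 2 calls were lost under TMM scaling and without the block, that of Klrb1f also without CaMKK2 KO mouse 2 and that of Klrd1 also without WT mouse 2. The median of the members was -0.87 and that of all genes was -0.17 on the log2 scale, which TMM scaling moved to -0.0074, and the share of higher genes among the calls went from 29.7% to 52.3% under that scaling. The cells with Gzmc were also larger libraries, with a median of 17410 UMIs against 5572, and the part of this difference in the result was not tested. Gzma, S1pr5 and Cma1, which are among the NK marker genes outside the gate, were lower in these cells too, by log2 values of -1.31, -3.84 and -4.58. Of the 8 transcription factors 7 were lower, Zeb2 by -2.08.

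CD8 T cells with 2 or more UMIs of Pdcd1 plus Havcr2, which encode the checkpoint receptors PD-1 and TIM-3, were compared with those having none in the 6 mice with at least 10 cells of both kinds, so that WT mouse 1 and CaMKK2 KO mouse 4 were left out. Of 8 members tested, Klrc1 and Klrd1 were higher and Klrb1c was lower in the checkpoint-positive cells, where 5.75% of 8429 genes were called. The log2 differences were 0.70 for Klrc1 (edgeR adjusted p = 0.00738), 0.62 for Klrd1 (edgeR adjusted p = 0.00333) and -1.45 for Klrb1c (edgeR adjusted p = 0.00125). In the cells without Pdcd1 and Havcr2, Klrc1 ran from 102 to 342 CPM over the 6 mice, and in those with it from 303 to 499 CPM over the 7 mice that had enough such cells, so the groups overlapped. All 3 calls were lost when the mouse block was left out. Without CaMKK2 KO mouse 1 only Klrb1c passed, and Klrc1 also failed without CaMKK2 KO mouse 2 and without WT mouse 4. Over all mice, the checkpoint-positive cells numbered 555, with a median of 12188 UMIs, and those with none 102, with a median of 7935. The part of this difference in depth in the result was not tested.

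WT and CaMKK2 KO mice were then compared within NK cells. Klrb1c and Klrb1a, the NK1.1 gene and its close relative, were higher in the CaMKK2 KO mice, and the NKG2 genes did not pass the test. Klrb1c was 472, 607, 408 and 386 CPM in the 4 WT mice and 692, 700, 647 and 673 CPM in the 4 CaMKK2 KO mice. Klrb1a was 85.3, 130, 94.5 and 125 CPM in WT and 156, 175, 142 and 217 CPM in CaMKK2 KO mice. For both genes every CaMKK2 KO mouse was above every WT mouse.

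Klrd1 did not overlap between the genotypes either, at 683, 919, 869 and 748 CPM in WT and 949, 954, 920 and 1011 CPM in CaMKK2 KO mice, although its highest WT mouse and its lowest CaMKK2 KO mouse nearly touched. Non-overlapping values with CaMKK2 KO above WT were found in these 3 members and in 6.24% of the 9338 genes tested. Klre1 overlapped, at 374, 673, 646 and 549 CPM in WT and 854, 905, 518 and 991 CPM in CaMKK2 KO mice. Klrc2 ran from 106 to 166 CPM in WT and from 126 to 244 CPM in CaMKK2 KO mice.

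**Figure D5:**
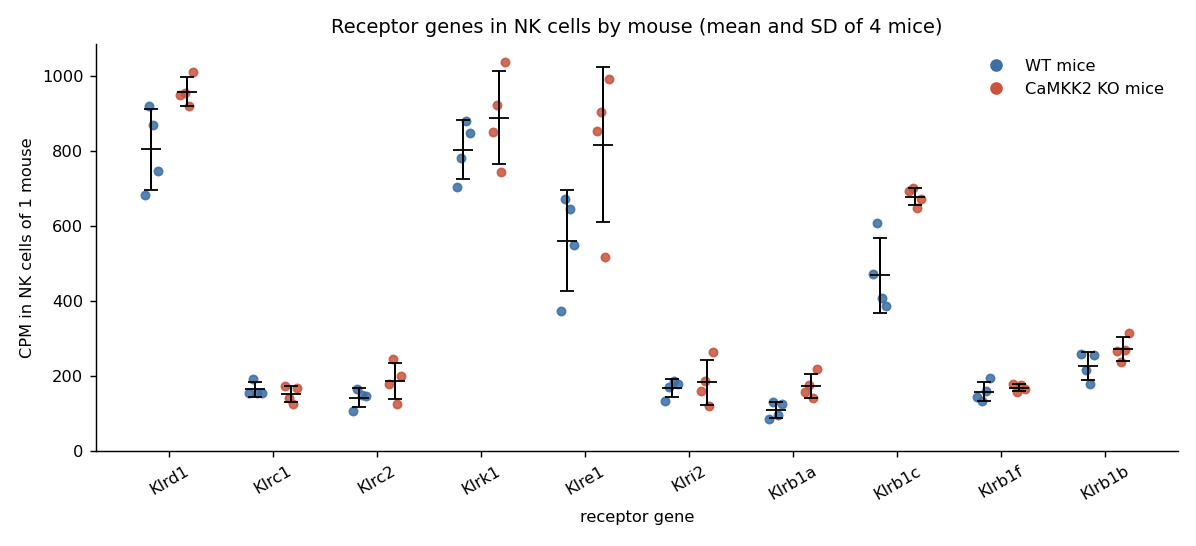
Level of each receptor gene in CPM in NK cells of the 4 WT (blue) and 4 CaMKK2 KO (red) mice, 1 point per mouse, with mean and SD. The CaMKK2 KO points of Klrd1, Klrb1a and Klrb1c all lie above the WT points, and those of the other 7 genes overlap.

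By edgeR, Klrb1a was higher in CaMKK2 KO NK cells by 0.63 on the log2 scale (SE 0.16, adjusted p = 0.0400) and Klrb1c by 0.53 (SE 0.13, adjusted p = 0.0356), as were 1.84% of 9338 genes. The log2 differences of the others were 0.54 for Klre1 (edgeR adjusted p = 0.157), 0.37 for Klrc2, 0.25 for Klrd1, 0.25 for Klrb1b, 0.14 for Klrk1, 0.09 for Klrb1f, 0.08 for Klri2 and -0.13 for Klrc1. Both calls were lost under TMM scaling, at adjusted p = 0.0642 for Klrb1a and 0.0765 for Klrb1c in edgeR (0.00846 to 0.534 and 0.00686 to 0.407 over all alternatives), where the share of higher genes among all calls went from 63.9% to 53.5%. Both were also lost with limma on mean CPM, Klrb1c with stricter gates and Klrb1a with clusters in place of gates, and each gene was called in 8 of 19 alternatives. Without CaMKK2 KO mouse 3, 830 genes in place of 269 and 4 members were called, Klrb1a, Klrb1c, Klrc2 and Klre1. Neither Klrb1a nor Klrb1c passed in 6 of the 8 fits that left out 1 mouse, with the exception of the fits without CaMKK2 KO mouse 3 and without WT mouse 2.

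The make-up of the NK cells differed between mice in the gene that went with lower receptor levels above. NK cells with 2 or more Gzmc UMIs made up 39.1%, 40.4%, 38.8% and 54.1% in the WT mice and 31.4%, 18.0%, 55.4% and 16.5% in the CaMKK2 KO mice, the third of which is mouse 3. Within NK cells without Gzmc the genotype difference was 0.46 for Klrb1a and 0.30 for Klrb1c, and within those with 2 or more Gzmc UMIs it was 0.47 and 0.44 on the log2 scale, and none of these 4 values passed the test in edgeR (adjusted p = 0.163, 0.407, 0.534 and 0.156). Klrb1a in cells without Gzmc did not overlap, at 125 to 178 CPM in WT and 198 to 240 CPM in CaMKK2 KO mice (exact permutation test, two-sided p = 0.0286, unadjusted, the smallest possible). It overlapped in cells with Gzmc, and Klrb1c overlapped in both groups. The share of all genes without overlap was not computed in these groups. The NK cells also differed in depth, the median being 9209.5 UMIs for WT cells and 6809 for CaMKK2 KO cells. The 5 macrophage check genes summed to 115 to 166 CPM in WT NK cells and to 73.3 to 105 CPM in CaMKK2 KO NK cells, none of them at 0. The 7 NK check genes summed to 3481 to 5981 CPM in WT and to 7223 to 15506 CPM in CaMKK2 KO NK cells, and the 3 cDC1 check genes, mainly Irf8, to 734 to 889 and 981 to 1410 CPM. None of these 3 lists overlapped between genotypes, and their part in the result was not tested.

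Of the other genes of these pathways, H2-T23, which encodes Qa-1, was higher in CaMKK2 KO NK cells by 0.57 on the log2 scale (1 of 4 ligand genes tested, of 12). Pik3r1, a subunit of phosphoinositide 3-kinase, was higher by 0.69 (1 of 17 adapter and signalling genes) and Id2, a regulator of innate lymphocytes, by 0.38 (1 of 8 transcription factors). Klrg1, an inhibitory receptor of mature NK cells, was higher by 1.45 (1 of 2 further receptors tested), at 19.0 to 33.2 CPM in WT and 44.4 to 98.4 CPM in CaMKK2 KO mice. In the chromosome 6 window 3 of 29 genes tested were called, all higher, Klra3, Klrb1c and Klrb1a.

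Among the T cell classes fitted, no member passed the edgeR test between genotypes as set up here, although some alternatives called members in conventional CD4 T cells. In CD8 T cells 8 members were tested, where 1.38% of 8695 genes were called by edgeR. None of the 8 was called by edgeR or by DESeq2, 0 had an unadjusted p under 0.05 in edgeR, and 7 of the 8 had positive log2 differences, such as 0.30 for Klrc1, 0.38 for Klrc2, 0.34 for Klrd1, 0.19 for Klrk1 and 0.35 for Klre1. DESeq2 gave no adjusted p for 7754 of the 8695 genes, so its lack of calls carries little weight. The difference between the genotype effects in NK and in CD8 T cells was called for none of the 10 members, where 0.365% of 10149 genes were called by edgeR. Klrc1 alone had an unadjusted p under 0.05 there (1 of 10), with the most negative log2 value, -0.44, and an edgeR adjusted p of 0.391. DESeq2 was not run for this difference.

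Conventional CD4 T cells were few in WT mice, with no cell in WT mouse 1 and 12, 12 and 15 in the other WT mice, against 36 to 96 in the CaMKK2 KO mice. Klrc2 was at 0 in the 3 WT mice and at 36.7, 69.5, 43.5 and 49.9 CPM in the CaMKK2 KO mice, but so few WT UMIs were counted that 0 allowed up to 38.5 to 50.8 CPM in each WT mouse. Klrd1 was 112, 118 and 25.7 CPM in WT and 337, 409, 149 and 387 CPM in CaMKK2 KO mice, so neither gene overlapped between the genotypes (exact permutation test of 3 against 4 mice, two-sided p = 0.0571 for each, the smallest possible), as was true of 8.88% of 5652 genes in this direction. None of 5 members passed in edgeR, where 0.442% of genes were called, 3 had an unadjusted p under 0.05 (Klrc1, Klrc2 and Klrd1), and DESeq2 called 1, Klrd1. DESeq2 gave no adjusted p for 2632 of the 5652 genes there. With genes of at least 10 UMIs edgeR called Klrc2 and Klrd1, with outlying cells kept or without CaMKK2 KO mouse 3 it called Klrd1, and without WT mouse 2 it called Klrc1. The adjusted p was 0.0804 for Klrc2, 0.0951 for Klrd1 at a log2 difference of 1.98, and 0.364 for Klrc1 in edgeR. All 122 Klrc2 UMIs came from CaMKK2 KO mice. Of 753 Klrd1 UMIs the 3 WT mice held 7, 7 and 2, and of 378 Klrc1 UMIs they held 11, 0 and 1. These 3 genes thus met the UMI minimum through the CaMKK2 KO mice alone. Their tests, and the lack of overlap of Klrc2 and Klrd1, therefore give no support for a genotype difference. In regulatory T cells no member had enough UMIs to be tested. The 217 T cells left over from the other T gates were not fitted. Klrb1a there was 53.3, 43.1, 43.5 and 30.7 CPM in WT and 0, 0, 14.9 and 0 CPM in CaMKK2 KO mice. It rested on 37 UMIs, of which the WT mice held 4, 7, 11 and 8. The count of 0 allowed up to 27.2, 9.98 and 13.1 CPM in CaMKK2 KO mice 1, 2 and 4. Klrb1a was the only member of 10 without overlap (exact permutation test, two-sided p = 0.0286, unadjusted, the smallest possible). This direction was opposite to that in NK cells. The share of all genes without overlap was not computed, so these values are a description.

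Macrophages, microglia and classical monocytes were compared between genotypes in fits added after the levels of Klrk1 there had been seen, and Klrk1 was higher in CaMKK2 KO macrophages. In macrophages Klrk1 was 11.6, 28.8, 26.9 and 21.7 CPM in the 4 WT mice and 47.7, 67.3, 36.2 and 85.8 CPM in the 4 CaMKK2 KO mice. In microglia it was 4.48, 17.2, 14.6 and 12.6 CPM in WT and 29.0, 36.3, 20.3 and 29.1 CPM in CaMKK2 KO mice. Both classes showed no overlap (exact permutation test, two-sided p = 0.0286 for each, the smallest that 4 against 4 allow), as did 4.41% of genes in macrophages and 3.05% in microglia in this direction. Classical monocytes overlapped, at 6.74 to 41.1 CPM in WT and 38.4 to 102 CPM in CaMKK2 KO mice.

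By edgeR, Klrk1 was higher in CaMKK2 KO macrophages by 1.40 on the log2 scale (SE 0.31, adjusted p = 0.0407), the only 1 of 5 members called there, where 1.14% of 10844 genes were higher. The call was lost in 7 of 8 fits that left out 1 mouse and kept without CaMKK2 KO mouse 3. It held under TMM scaling, which moved the share of higher genes among all calls from 40.8% to 55.3%. The log2 difference was 1.26 in microglia (edgeR adjusted p = 0.123, where 0.624% of genes were called higher) and 1.15 in classical monocytes (edgeR adjusted p = 0.107, where 1.33% were), so that none of 3 and of 4 members passed there, while Klrk1 had an unadjusted p under 0.05 in both and DESeq2 called it in microglia but not in monocytes. Genes of NK cells moved the same way, since the 7 NK check genes summed to 6.53 to 9.42 CPM in macrophages of WT mice and to 20.3 to 29.8 CPM in those of CaMKK2 KO mice, mainly Gzma. The T cell check genes were higher too, at 7.57 to 12.04 CPM in WT against 13.3 to 21.6 CPM in CaMKK2 KO macrophages, whereas 3 lists were lower without overlap in CaMKK2 KO mice, the microglia genes at 125 to 141 against 48.2 to 59.3 CPM, the B cell genes at 7.47 to 10.8 against 2.58 to 5.21 CPM, and the macrophage genes at 13483.5 to 15388 against 9258 to 13456 CPM. In microglia of WT and CaMKK2 KO mice the NK genes summed to 4.51 to 5.77 and to 22.6 to 31.8 CPM. The T cell genes there summed to 9.98 to 12.4 and to 15.4 to 23.8 CPM, and the other lists overlapped. In classical monocytes the NK genes summed to 3.76 to 13.5 and to 24.3 to 34.5 CPM. The T cell, B cell and neutrophil genes were also higher there without overlap. The part of these lists in the results was not tested. Klrd1 was not called in macrophages, standing at 7.78 ± 2.53 CPM for WT mice against 6.33 ± 1.77 CPM for CaMKK2 KO mice (SD, n = 4 each), with a log2 difference of -0.33 (edgeR adjusted p = 0.530).

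In dendritic cells no member passed in edgeR. In cDC2 5 members were tested, where 1.81% of genes were called by edgeR, and the log2 differences were -0.57 for Klrb1b, which had an unadjusted p under 0.05 (1 of 5), and -0.38 for Klrd1. DESeq2 called 0 of the 5. In cDC2 the cDC1 check genes summed to 245 to 576 CPM in WT and to 865 to 1104 CPM in CaMKK2 KO mice. The microglia check genes, mainly Siglech, summed to 33.6 to 181 and to 232 to 570 CPM. Like the NK genes given above, these lists did not overlap between genotypes, and the other lists did. Their part in the result was not tested. In mature DC Klrd1 was 267, 166 and 259 CPM in the 3 WT mice with enough cells and 92.7, 34.2, 115 and 107 CPM in CaMKK2 KO mice, with no overlap, as in 4.09% of 4525 genes in this direction, and a log2 difference of -1.40 (edgeR adjusted p = 0.0843, where 0.464% of genes were called). It was 1 of 3 members tested, had an unadjusted p under 0.05 in edgeR and was called by DESeq2. The NK check genes in mature DC summed to 0 to 16.2 CPM in WT and to 17.4 to 34.2 CPM in CaMKK2 KO mice, and the other lists overlapped.

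Over the 15 classes with at least 50 cells, the genes most like each member in log2(CPM + 10), the mean over mice, were found by Pearson correlation as a description. Classes share their libraries and differ in depth, and the level of Eomes over classes is partly set by the NK gate, which uses it. Klrb1c was most like Samd3 (r = 0.989), Eomes (r = 0.985) and Klrb1a (r = 0.979), and Klrb1a most like Klrb1c, Klrb1f (r = 0.970) and Eomes (r = 0.965). Klrb1f was most like Hemgn (r = 0.984), Klrc2 like Klre1 (r = 0.974), and Klrc1 like Nrgn (r = 0.972), Lcn4 (r = 0.971) and Itga1 (r = 0.945). Klrd1 and Klrk1 were close to each other (r = 0.883). Klrb1b, whose promoter is printed above with the other NKR-P1 genes, stood apart, with 5033406O09Rik as its nearest gene (r = 0.843) and r = 0.417 with Klrb1c.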

How the data were processed

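Per the submitters' processing notes, reads were demultiplexed with bcl2fastq 2.20 and aligned to mm10 with Cell Ranger 4.0.0 and STAR 2.7.5c. The deposited values are raw UMI counts per gene and barcode for the barcodes the authors' pipeline called as cells, with hashtag counts. Seurat 5.3.0 gave each barcode its mouse (HTODemux, quantile 0.99), and singlets with at least 200 genes were kept. With scuttle 1.12.0, cells more than 3 median absolute deviations from the median gene number, UMI total or mitochondrial share were removed. Scrublet (scanpy 1.11.5, expected 0.8% per 1000 barcodes) was used as an alternative filter.

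Classes were gated on raw UMIs of marker genes, and the gated cells numbered 10052 of 10995. The check clusters used 3000 variable genes without the receptor genes, 30 principal components and Leiden resolution 0.5. UMIs were summed per mouse and class, mice with fewer than 10 cells of a class were left out, and genes with at least 50 UMIs were tested in edgeR 4.0.16 by quasi-likelihood, with library size equal to the class total, at an adjusted p of 0.05. DESeq2 1.42.0, limma 3.58.1 on mean CPM with a pseudocount of 1, TMM scaling, other filters and gates and leaving out each mouse were alternatives. The method was tested on simulated data.

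The receptor genes, gates and gene lists were chosen with earlier results of these data known. All 10 receptor genes were described in full. Genes of the fixed lists were named where a result refers to them, and not every one that passed a test is named. Between genotypes, Raet1d was also called lower in CaMKK2 KO classical monocytes and Id2 lower in CaMKK2 KO cDC2. Intervals, shares and the limit of a count of 0 cover counting error alone.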

Additional observations from a re-analysis of the deposited data

Results flagged for a closer look

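Among 70 groups of 4 mice screened, 4 held 1 mouse far from the other 3 by Dixon's test, and chance alone flags about 1 in 20 groups. Klrc1 in NK cells of WT mouse 2 was at 192 CPM, against 153 to 154 CPM in the other WT mice. Klrc2 in CD8 T cells of WT mouse 1, which had 16 such cells, was at 68.1 CPM, against 105 to 106 CPM. Klrb1b in CD8 T cells of WT mouse 2 was at 9.39 CPM, and Klrb1b in macrophages of WT mouse 2 was at 44.5 CPM, against 30.5 to 32.6 CPM in the other WT mice.

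The 943 cells in no gate were not used in any comparison. Pooled, they held Klrd1 at 240 CPM, Klrk1 at 238 CPM and Klrb1b at 95.4 CPM, above the B cell values, and 200 of them lay in the NK clusters.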

How the results depend on the processing

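All 110 refits of the members in NK against CD8 T cells and all 54 in cDC2 against macrophages kept direction and call. In NK cells between genotypes, small differences changed sign: Klrb1f to -0.061 and Klrk1 to -0.022 in cells without Gzmc, and Klri2 to -0.079 there, to -0.31 in cells with 2 or more Gzmc UMIs, to -0.0066 under TMM scaling, and between -0.12 and 0.24 when 1 mouse was left out. The cause was not tested.

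Counts of called genes moved more. In NK cells, 269 genes became 171 in cells with 2 or more Gzmc UMIs, 105 in those without, 423 with outlying cells kept, 175 with stricter gates, and 109 to 830 without 1 mouse, where fewer cells or mice entered all but the third. In CD8 T cells, 120 became 68 at 200 or more UMIs, 18 with limma, and 63 to 134 without 1 mouse. In conventional CD4 T cells, 25 became 58 with DESeq2, 48 at 10 or more UMIs, 9 with limma, 48 with outlying cells kept, and 14 to 38 without 1 mouse. In regulatory T cells, 24 became 12 at 200 or more UMIs, 6 with limma, and 10 to 30 without 1 mouse. The difference of genotype effects gave 37, and 13 to 76 without 1 mouse. The Pdcd1/Havcr2 comparison gave 485, 235 without the mouse block, and 316 to 450 without 1 mouse. TMM scaling moved the share of higher genes among calls between genotypes from 55.8% to 44.2% in CD8 T cells, 63.5% to 51.4% in cDC2, 42.9% to 31.6% in mature DC and 39.5% to 57.5% in microglia. Stricter gates left too few conventional CD4 T cells for a fit.

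Between genotypes no paired analysis was possible because each genotype is 1 library whose mice are told apart by hashtag alone. The labels tie no WT mouse to a CaMKK2 KO mouse. Classes and cell groups of the same mice were compared with mouse as a block or by sign-flip tests. Depth limits the low members: none was testable in regulatory T cells.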
